A study of Mus musculus with 4 samples.

Results

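The 9 genes described here were 7 posterior *Hox* genes (*Hoxa11*, *Hoxa13*, *Hoxb13*, *Hoxd10*, *Hoxd11*, *Hoxd12* and *Hoxd13*) and the 2 caudal-type homeobox genes *Cdx1* and *Cdx2*. They were taken by symbol from the 16015 genes listed for the series, and all 9 were present. RNA of colonic epithelial cells was sequenced from 2 mice labelled WT and 2 mice labelled *Bmal1* cKO, on day 7 of a colitis model in which 3% dextran sulfate sodium (DSS), a polymer toxic to colonic epithelium, was given in drinking water for 5 days and followed by plain water for 2 days. In the study's methods the controls carried floxed *Bmal1* alleles (*Bmal1* fl/fl) without Cre. The *Bmal1* cKO mice carried *Villin-CreERT2* in addition, a Cre that tamoxifen activates and that an intestinal epithelial promoter drives, so that cells other than epithelium keep *Bmal1*. The methods give a C57BL/6 background and an age of 2 to 4 months for the mice, and the colon segment that the RNA came from is not given in the sources used here.

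HOX proteins are homeodomain transcription factors whose genes lie in clusters and are used in their physical order along the body axis. The genes at the 5′ end, with the highest numbers, are used most posteriorly, in the hindgut, the distal colon and the rectum, in the epithelium as well as in the connective tissue and muscle around it. CDX1 and CDX2 are related homeodomain factors that set and keep the intestinal fate of the epithelium, and posterior *Hox* expression is a lasting mark of position along the colon. The comparison asked whether the libraries of the 2 groups differed in these marks of position and colonic identity.

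Values are normalized counts, that is reads on a gene after the authors' scaling of each library by its size factor. Each library held between 10312791 and 14156639 reads on the listed genes, and a gene was tested where its mean over the 4 libraries was at least 10. Groups were compared by limma on log2(normalized count + 1), two-sided, and called at an adjusted p (Benjamini-Hochberg over the 13983 tested genes) under 0.05. Fold changes in these libraries ran with base composition (Spearman's rho with GC content -0.62 over 13975 genes, a description only), so the value of each tested member is given beside that after every library had been adjusted by loess for GC content and exon length, here called the GC adjustment, and for other genes and lists the call or count with it. *Arntl*, the gene targeted in the *Bmal1* cKO mice, had 358 and 342 normalized counts in the WT libraries against 341 and 289, a difference of -0.16 ± 0.14 (SE) on the log2 scale that did not pass (limma, adjusted p = 0.389). The difference was -0.45 with the GC adjustment (adjusted p = 0.0598). The directions below are therefore those of the libraries labelled *Bmal1* cKO against those labelled WT. With 2 mice in each group an exact permutation test of a single value cannot give a p under 0.333.

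Markers of other cell types also differed between the groups. The summed normalized counts of 9 epithelial markers were 113237 and 127537 in the WT libraries and 104533 and 110294 in the *Bmal1* cKO libraries, with 3 of 9 called lower, and 5 called higher and 0 lower after the GC adjustment. Library total scaling called 6 of them lower and DESeq2 on the recovered reads 5. The summed counts of 14 markers of mesenchyme and smooth muscle were 16997 and 4681 against 575 and 660, with 12 of 14 called lower and the smooth muscle gene *Des* at 0 and 1 read in the *Bmal1* cKO libraries. Those of 10 leukocyte markers were 9916 and 12343 against 1135 and 1300, with 8 of 10 lower. Those of 7 listed endothelial, neuronal and glial markers were 1288 and 589 against 188 and 151, with 4 of 5 tested lower. With *Bmal1* cKO mouse 1 or 2 left out, 6 and 6 mesenchymal and 2 and 1 endothelial, neuronal and glial markers were called lower, without *Bmal1* cKO mouse 1 5 leukocyte markers, and without WT mouse 1 2 endothelial, neuronal and glial ones. The mesenchymal, leukocyte and endothelial, neuronal and glial genes called lower with the GC adjustment were 11, 8 and 4. In bulk RNA, fewer cells of a type and less RNA per cell cannot be told apart. The part of these cells in the values of the *Hox* and *Cdx* genes, and of the other genes below, was not tested.

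Of the 9 genes, 8 reached the mean needed for the test, and *Hoxd12* did not. *Cdx1*, *Cdx2* and *Hoxa11* were called lower in the *Bmal1* cKO libraries, *Hoxd10* and *Hoxd13* were called higher, and *Hoxa13*, *Hoxb13* and *Hoxd11* were not called. Among all tested genes 27.7% were called lower and 29.0% higher, 56.7% in all, and the share of the members called was near this background. Library total scaling called 4885 genes lower and 3091 higher, against 3871 and 4059 with the authors' size factors. The WT and *Bmal1* cKO libraries did not overlap for 4 members that were lower and 4 that were higher, where 41.6% and 37.5% of all listed genes, 79.1% together, did so. The median log2 fold change was 0.01 over the 8 tested members and -0.04 over all tested genes.

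**Figure D1:**
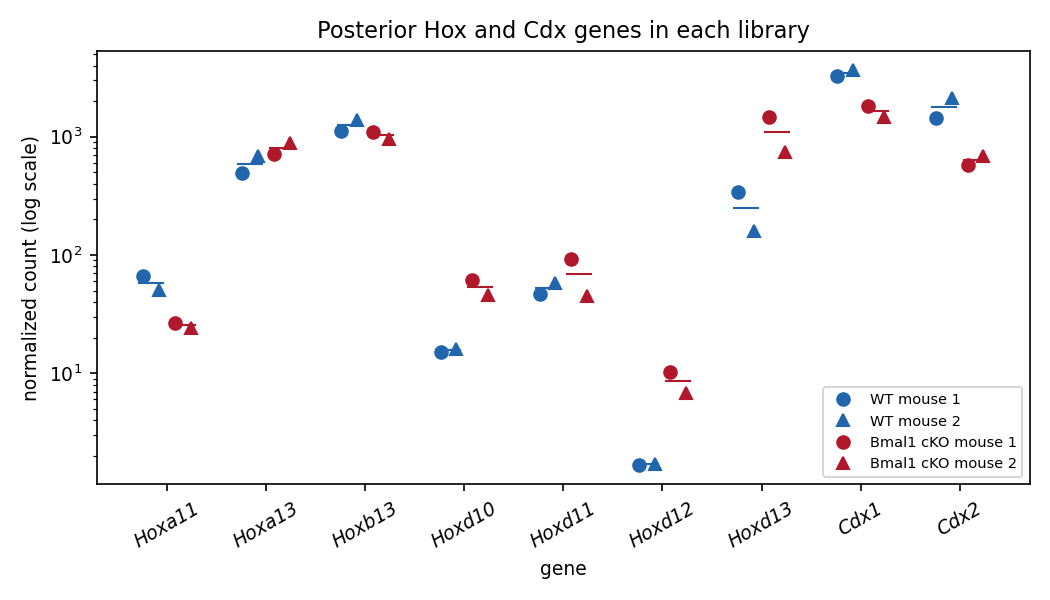
Normalized count (log scale) of each of the 9 genes in the 2 WT libraries (blue) and the 2 *Bmal1* cKO libraries (red), with circles for mouse 1, triangles for mouse 2 and horizontal lines for the group means. *Cdx1*, *Cdx2* and *Hoxa11* sit lower and *Hoxd10*, *Hoxd12* and *Hoxd13* higher in both *Bmal1* cKO libraries, while the libraries overlap for *Hoxd11*.

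Among the tested members the largest rise on the log2 scale was that of *Hoxd13* (chromosome 2 of GRCm38, 74668310 to 74671599, plus strand), the gene at the 5′ end of the HoxD cluster, known for its part in shaping the digits, the genital tubercle and the anorectal region. It had 344 and 160 normalized counts in the WT libraries and 1462 and 746 in the *Bmal1* cKO libraries. Both *Bmal1* cKO libraries were above both WT libraries, and the mice of a group differed widely from each other. The means were 252 ± 130 and 1104 ± 506 normalized counts (SD, n = 2 each), 4.38-fold apart, and the log2 fold change was 2.15 ± 0.46 (SE; limma, adjusted p = 0.0116). It was 1.81 with the GC adjustment (adjusted p = 0.0394). The call was lost without WT mouse 2, at 1.60 (adjusted p = 0.0716), and without *Bmal1* cKO mouse 1, at 1.66 (adjusted p = 0.0952), with the direction kept in both.

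*Hoxd10* (chromosome 2, 74691924 to 74695105, plus strand), which patterns the lumbosacral segments and the limb, was a gene of low level and also rose. It had 15.2 and 16.1 normalized counts in the WT libraries and 61.7 and 46.0 in the *Bmal1* cKO libraries, from 18 to 60 reads in each library. The groups did not overlap, and the log2 fold change was 1.71 ± 0.41 (SE; limma, adjusted p = 0.0176). With the GC adjustment it was 1.32 and no longer passed (adjusted p = 0.0608), and it did not pass with any one mouse left out (adjusted p from 0.0523 to 0.121).

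*Hoxd12* (chromosome 2, 74675013 to 74677705, plus strand), the neighbour of *Hoxd13* in the cluster, had 2 and 2 reads in the WT libraries and 10 and 5 reads in the *Bmal1* cKO libraries. The WT libraries were under the smallest amount taken as detectable, 3 reads, and its mean was below that needed for the test. In the fit without a filter on low values it was not called (limma, adjusted p = 0.0854).

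*Hoxd11* (chromosome 2, 74679557 to 74687016, plus strand) lies between *Hoxd12* and *Hoxd10* and shapes the forearm and the kidney together with *Hoxa11*. It had 46.5 and 58.4 normalized counts in the WT libraries and 92.6 and 44.6 in the *Bmal1* cKO libraries, so that one *Bmal1* cKO mouse was above both controls and the other below both. The log2 fold change of 0.30 had a 95% interval from -0.79 to 1.39 (limma, adjusted p = 0.577), and it was 0.10 with the GC adjustment (adjusted p = 0.874). The annotation places a transcript of the same strand, *Gm28309*, over 10.8% of the exon bases of *Hoxd11* and 5.73% of those of *Hoxd10*, and reads there cannot be assigned to one gene.

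The genes on both sides of the HoxD members were read as well. *Evx2*, the homeobox gene just beyond *Hoxd13*, had 20.3 and 9.32 normalized counts in the WT libraries and 62.7 and 46.0 in the *Bmal1* cKO libraries and was called higher, by 1.88 ± 0.53 (SE) on the log2 scale (limma, adjusted p = 0.0286), and by 2.57 with the GC adjustment (adjusted p = 0.0195). Towards the 3′ end, *Hoxd9* had 14 and 16 reads in the WT libraries and 2 and 2 in the *Bmal1* cKO libraries. *Hoxd8* had 12 and 6 against 6 and 2 reads, with the groups overlapping. *Hoxd4* had 18 and 4 against 0 reads in both, at least 2.29-fold lower from the WT mean, with 3 reads in the shallower *Bmal1* cKO library as the floor, a bound that rests on WT mouse 1, since WT mouse 2 (3.39 normalized counts) was under the floor (4.06). None of *Hoxd4*, *Hoxd8* and *Hoxd9* reached the mean needed for the test. In the fit without a filter on low values *Hoxd4* and *Hoxd9* were called lower, close to the threshold (limma, adjusted p = 0.0460 and 0.0466), and *Hoxd8* was not (adjusted p = 0.484). The genes that flank the cluster, *Lnpk* at the 5′ and *Mtx2* at the 3′ end, rose, *Lnpk* from 383 and 429 to 1242 and 1029 normalized counts and *Mtx2* from 625 and 639 to 1243 and 1287 (limma, adjusted p = 8.55e-04 and 8.56e-04). With the GC adjustment their log2 fold changes were 0.04 and 0.17 and did not pass (adjusted p = 0.851 and 0.175).

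Promoter windows of 3 HoxD members are shown because they hold the motif searched for and include both members that rose, and that of *Cdx2* is shown as the window of a member that fell. They were taken from RefSeq on GRCm38.p6, 250 bases before to 50 bases after the annotated start, and 8 windows of 7 of the 9 genes were searched. Windows of *Cdx1*, a member called lower, and of *Hoxb13* are not among them. Capitals mark CACGTG, the palindromic E-box that the BMAL1 and CLOCK pair is known to bind, which reads the same on both strands. It stood in 3 of the 8 windows, all of HoxD genes, and in 7.15% of the 32851 windows of the table. It began 229 bases before the start of *Hoxd13*, 96 before the downstream of the 2 annotated starts of *Hoxd11* and 73 before that of *Hoxd10*. The letters TTTATTG, a core of the sites of CDX and posterior HOX proteins, were searched on both strands as well and stood in 0 of the 8 windows and in 4.60% of all. With a single motif present, no match overlapped another. A match of letters is a description, and no binding was measured in these libraries. The windows lie at chr2:74667975-74668274 (*Hoxd13*, plus strand), chr2:74682073-74682372 (*Hoxd11*, plus strand), chr2:74691641-74691940 (*Hoxd10*, plus strand) and chr5:147307200-147307499 (*Cdx2*, minus strand), each written 5′ to 3′ on its gene's strand.
Hoxd13: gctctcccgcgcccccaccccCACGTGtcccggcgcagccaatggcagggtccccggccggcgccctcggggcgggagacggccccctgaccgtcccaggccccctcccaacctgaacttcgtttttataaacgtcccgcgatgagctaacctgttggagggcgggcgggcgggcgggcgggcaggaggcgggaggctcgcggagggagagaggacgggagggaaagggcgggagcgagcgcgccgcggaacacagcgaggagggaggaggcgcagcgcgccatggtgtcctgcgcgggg
Hoxd11: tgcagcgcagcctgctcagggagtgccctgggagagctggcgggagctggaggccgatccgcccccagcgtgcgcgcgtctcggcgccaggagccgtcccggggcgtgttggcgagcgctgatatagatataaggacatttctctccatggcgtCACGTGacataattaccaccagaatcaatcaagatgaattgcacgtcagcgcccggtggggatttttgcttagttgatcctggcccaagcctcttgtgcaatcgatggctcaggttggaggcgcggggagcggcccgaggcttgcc
Hoxd10: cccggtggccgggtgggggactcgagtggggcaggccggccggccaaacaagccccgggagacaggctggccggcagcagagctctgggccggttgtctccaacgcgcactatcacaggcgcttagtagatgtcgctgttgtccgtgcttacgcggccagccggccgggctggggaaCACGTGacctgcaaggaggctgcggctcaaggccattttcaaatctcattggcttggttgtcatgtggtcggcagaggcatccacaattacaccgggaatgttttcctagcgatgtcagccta
Cdx2: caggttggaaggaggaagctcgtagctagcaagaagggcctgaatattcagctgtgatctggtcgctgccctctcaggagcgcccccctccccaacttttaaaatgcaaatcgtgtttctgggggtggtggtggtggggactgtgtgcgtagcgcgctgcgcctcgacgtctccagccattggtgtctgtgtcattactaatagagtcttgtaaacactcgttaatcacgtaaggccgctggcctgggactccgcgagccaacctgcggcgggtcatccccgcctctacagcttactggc

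The 4 windows differed in base composition. That of *Hoxd13* held 74.3% G and C and 37 CpG, against 62.7% and 22 for *Hoxd10*, 62% and 25 for *Hoxd11* and 57.3% and 18 for *Cdx2*, where the medians of all windows were 52.7% and 7. The transcripts of *Hoxd13* had a GC content of 47.4%, below that of its promoter window.

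**Figure D2:**
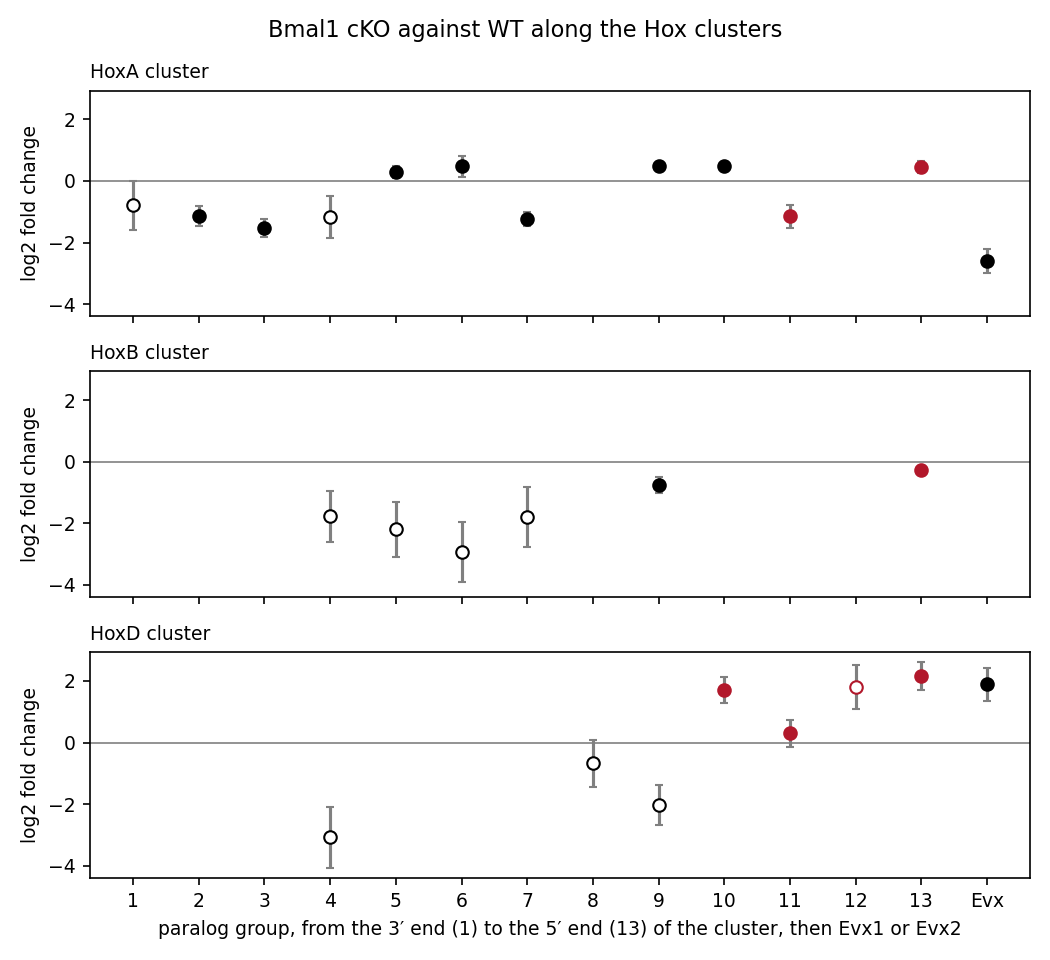
Log2 fold change of *Bmal1* cKO against WT along the HoxA, HoxB and HoxD clusters by paralog group, from the 3′ to the 5′ end and on to *Evx1* or *Evx2* (points, with bars for the standard error, from the limma fit without a filter on low values). Red marks the genes described here and open symbols the genes too low for the test, and in HoxD *Hoxd10*, *Hoxd12*, *Hoxd13* and *Evx2* lie well above 0 and the untested *Hoxd4*, *Hoxd8* and *Hoxd9* below it, with the libraries overlapping for *Hoxd8*.

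In the HoxA cluster the 2 members differed in direction. *Hoxa13* (chromosome 6, 52257694 to 52260880, minus strand), the paralog of *Hoxd13* that is needed for the hindgut and the genital tubercle, had 498 and 689 normalized counts in the WT libraries and 709 and 891 in the *Bmal1* cKO libraries. The *Bmal1* cKO libraries were higher, one by only a small margin over the higher WT library, and the log2 fold change of 0.44 did not pass (95% interval from -0.06 to 0.94; limma, adjusted p = 0.110). Its transcripts have a GC content of 58.9%, in the highest of 10 equal classes, in which the median log2 fold change of all genes was -1.36. With the GC adjustment *Hoxa13* was called higher, by 1.62 ± 0.21 (SE) on the log2 scale (limma, adjusted p = 0.00692), where 17.1% of all genes were called higher.

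*Hoxa11* (chromosome 6, 52242106 to 52245810, minus strand), known for the kidney, the uterus and the forearm, had 65.9 and 50.8 normalized counts in the WT libraries and 26.7 and 24.3 in the *Bmal1* cKO libraries. The groups did not overlap, and the log2 fold change was -1.15 ± 0.36 (SE; limma, adjusted p = 0.0406). The call was close to the threshold and was lost with the GC adjustment (-0.73, adjusted p = 0.169), in edgeR and DESeq2 on the recovered reads (adjusted p = 0.0517 and 0.0975), and with any one mouse left out (limma, adjusted p from 0.0722 to 0.143). Its antisense partner *Hoxa11os*, whose exons cover 800 of the 2287 exon bases of *Hoxa11*, had 455 and 678 normalized counts in the WT libraries and 257 and 270 in the *Bmal1* cKO libraries and was called lower, by 1.07 on the log2 scale, a decrease that did not pass with the GC adjustment (adjusted p = 0.457). The ratio of *Hoxa11os* to *Hoxa11* was 6.91 and 13.35 in the WT libraries and 9.62 and 11.11 in the *Bmal1* cKO libraries. Whether the counting used strand is not given in the sources used here, and without strand the reads in the shared stretch cannot be assigned to one of the pair.

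*Hoxb13* (chromosome 11, 96194316 to 96197447, plus strand), the gene of the HoxB cluster that marks the distal colon, the rectum and the prostate, was not called. It had 1127 and 1379 normalized counts in the WT libraries and 1107 and 962 in the *Bmal1* cKO libraries, and the lower WT library and the higher *Bmal1* cKO library lay close together. The log2 fold change was -0.27, with a 95% interval from -0.62 to 0.07 (limma, adjusted p = 0.143), and 0.30 with the GC adjustment (adjusted p = 0.144). With the libraries scaled to their totals in place of the authors' size factors it was called lower (-0.50, adjusted p = 0.0251), a scaling that moved the median log2 fold change of all tested genes to -0.26.

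The shares of the paralog group 13 genes were compared within each library. Per length of exon, *Hoxb13* made up 60.1% and 64.6% of the summed level of *Hoxa13*, *Hoxb13* and *Hoxd13* in the WT libraries and 36.4% and 39.8% in the *Bmal1* cKO libraries. *Hoxd13* made up 16.3% and 6.66% against 42.7% and 27.4%. *Hoxa13* made up 23.7% and 28.8% against 20.8% and 32.8%, with the groups overlapping. These shares are set within a library and do not depend on its size factor, but the genes differ in GC content (54.6% for *Hoxb13*, 47.4% for *Hoxd13*), and with 2 mice a group no exact test of a share can pass.

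*Cdx1* (chromosome 18, 61018862 to 61036199, minus strand), a Wnt-responsive gene of the intestinal crypt, had the highest level of the 9 genes. It had 3261 and 3634 normalized counts in the WT libraries and 1814 and 1468 in the *Bmal1* cKO libraries. Both *Bmal1* cKO libraries were well under both WT libraries, the means were 3447 ± 264 and 1641 ± 245 normalized counts (SD, n = 2 each), and the log2 fold change was -1.08 ± 0.13 (SE; limma, adjusted p = 0.00193). The transcripts of *Cdx1* have a GC content of 62.1%, and the median log2 fold change in its GC class was -1.36, with 75.0% of the genes in the class called lower. The direction turned with the GC adjustment, and *Cdx1* was called higher, by 0.67 ± 0.11 (SE) on the log2 scale (limma, adjusted p = 0.0126). The direction of *Cdx1* therefore depends on this step, while the fall was called in the other 13 settings tried, which include leaving out each mouse.

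*Cdx2* (chromosome 5, 147300805 to 147307270, minus strand), the factor that sets intestinal fate in the embryonic endoderm and holds it in the adult, had 1440 and 2135 normalized counts in the WT libraries and 575 and 693 in the *Bmal1* cKO libraries. The means were 1787 ± 491 and 634 ± 83.7 normalized counts (SD, n = 2 each), 2.82-fold lower in the *Bmal1* cKO libraries, with a log2 fold change of -1.47 ± 0.21 (SE; limma, adjusted p = 0.00301). In its class of GC content (the transcripts have 57.5%) the median was -0.83 and 58.2% of the genes were lower. With the GC adjustment the log2 fold change was -0.50 and did not pass (adjusted p = 0.128). The call held in each setting without the adjustment, at an adjusted p of at most 0.0442 from limma with a mouse left out.

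**Figure D3:**
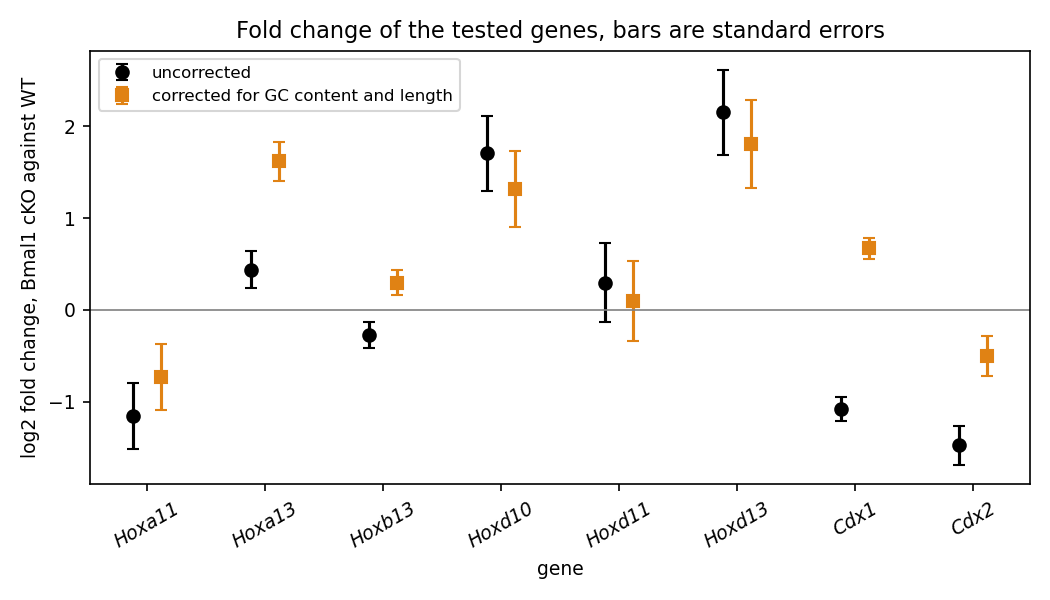
Log2 fold change of *Bmal1* cKO against WT for the 8 tested genes, uncorrected (black circles) and with the GC adjustment (orange squares), with bars for the standard error. *Hoxd13* lies at 2.15 and 1.81, *Cdx1* moves from -1.08 to 0.67 and *Hoxa13* from 0.44 to 1.62.

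The members called with the GC adjustment were *Hoxa13*, *Hoxd13* and *Cdx1*, all higher, against a background of 16.8% lower and 17.1% higher (33.9% in all). *Hoxd13* was called in the same direction with and without it. The adjusted median log2 fold change was 0.48 over the tested members and -0.02 over all tested genes. *Cdx1* and *Hoxa13*, in the highest GC class, moved upwards most with the adjustment, and *Hoxd11*, near the median GC content of all tested genes (49.9%), moved least.

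**Figure D4:**
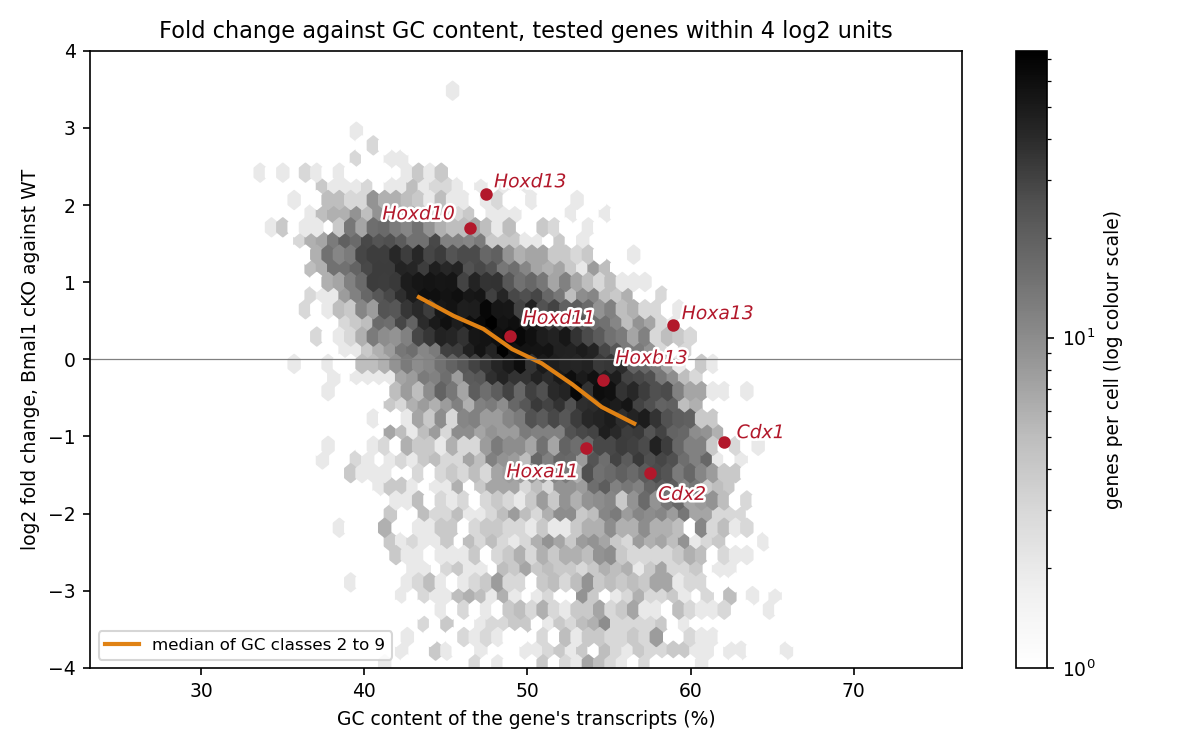
Log2 fold change of *Bmal1* cKO against WT (vertical, shown within 4 units) against the GC content of the gene's transcripts in percent (horizontal) for the tested genes, as grey cells whose shade gives the number of genes on a log scale, with the 8 tested members in red. The orange line joins the medians of GC classes 2 to 9 and falls from 0.81 to -0.83, and *Hoxd13* and *Hoxa13* lie above the medians of their GC classes (0.39 and -1.36), while *Cdx1*, at -1.08, lies close to that of its class (-1.36).

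On the scale of level per kilobase of exon, the order in the WT libraries was *Cdx1* (1970 normalized counts per kilobase), *Cdx2* (791), *Hoxb13* (568), *Hoxa13* (240), *Hoxd13* (101), *Hoxa11* (25.5), *Hoxd11* (12.5), *Hoxd10* (8.62) and *Hoxd12* (0.668), with no overlap between neighbours over the 2 mice. In the *Bmal1* cKO libraries *Cdx1* was again first (938), followed by *Hoxb13* (469), *Hoxd13* (445), *Hoxa13* (324) and *Cdx2* (280), of which each overlapped the next. *Hoxd10* (29.6), *Hoxd11* (16.3), *Hoxa11* (11.2) and *Hoxd12* (3.36) closed the order, and *Hoxd11* and *Hoxa11* overlapped. The ratio of *Hoxb13* to *Cdx2* per length was 0.80 and 0.66 in the WT libraries and 1.97 and 1.42 in the *Bmal1* cKO libraries. That of *Cdx1* to *Cdx2* was 2.92 and 2.20 against 4.08 and 2.74, with the groups overlapping.

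Of 32 other *Hox* genes searched for by symbol 17 were listed and 8 tested, 3 of them called lower and 2 higher, against 2 and 3 with the GC adjustment. The number lower was 5 without a filter on low values, 0 without WT mouse 2 and 1 without *Bmal1* cKO mouse 2. All 11 genes of HoxA were listed, and the direction varied along the cluster. *Hoxa9* and *Hoxa10*, the genes next to *Hoxa11*, rose from 617 and 724 to 922 and 942 and from 692 and 869 to 1072 and 1108 normalized counts, by 0.48 and 0.49 on the log2 scale (limma, adjusted p = 0.0183 and 0.0271), and by 0.64 and 0.56 with the GC adjustment (adjusted p = 0.0127 and 0.0258). With the libraries scaled to their totals, without WT mouse 1 and without either *Bmal1* cKO mouse they did not pass. *Hoxa2*, *Hoxa3* and *Hoxa7* fell by 1.14, 1.53 and 1.23 on the log2 scale (adjusted p = 0.0262, 0.00776 and 0.00698), *Hoxa2* and *Hoxa3* also with the GC adjustment, while without WT mouse 2 none of them passed and without *Bmal1* cKO mouse 2 *Hoxa7* alone did. The 4 HoxB genes *Hoxb4*, *Hoxb5*, *Hoxb6* and *Hoxb7* had 5 to 24 reads in the WT libraries and 0 to 3 in the *Bmal1* cKO libraries, too few for the test. Of 13 listed neighbours of the clusters and of *Cdx2*, 10 were tested, 2 lower and 4 higher, against 0 and 1 with the adjustment. Fewer were called in both directions with either *Bmal1* cKO mouse left out, and fewer were called higher without WT mouse 2. *Evx1*, beyond *Hoxa13*, had 79.4 and 112 against 14.4 and 14.9 normalized counts, a log2 fold change of -2.61 (limma, adjusted p = 0.00312), which was -0.98 with the GC adjustment (adjusted p = 0.100).

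HOX proteins bind DNA with partner homeodomain proteins of the PBX, MEIS and PKNOX families. Of the 7 tested genes of these families, 3 were lower and 2 higher, against 2 and 1 with the GC adjustment. *Meis2* had 73 and 18 reads in the WT libraries and 0 in both *Bmal1* cKO libraries, at least 9.48-fold lower from the WT mean and 3.76-fold from WT mouse 2 alone. *Meis3* had 107 and 83.0 against 5.14 and 4.06 normalized counts and was lower (limma, adjusted p = 0.00150), also with the GC adjustment (adjusted p = 0.00946). The summed markers of mesenchyme and smooth muscle fell in the same libraries, from 16997 and 4681 to 575 and 660 normalized counts. The part of such cells in the values of *Meis2* and *Meis3* was not tested. *Pknox1* rose by 0.66 on the log2 scale (adjusted p = 0.00849), also with the adjustment, and *Pbx2* fell by 0.65 (adjusted p = 0.0104), which did not pass with it (adjusted p = 0.987). Without *Bmal1* cKO mouse 1 or 2, 1 of the 7 was lower, and the number higher was 0 without mouse 1 of that group and 1 without any one of the other 3 mice.

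Genes described as CDX targets or as products of colonocyte differentiation did not share one direction. Of 13 tested, 5 were higher and 3 lower, against 4 and 1 with the GC adjustment, and the median log2 fold change was 0.44, or 0.03 with it. *Slc26a3*, the chloride and bicarbonate exchanger of colonocytes, rose from 2200 and 4707 to 13157 and 15104 normalized counts (limma, adjusted p = 0.00486). *Cdh17*, the intestinal cadherin, rose by 1.12 on the log2 scale (adjusted p = 0.00227) and *Cldn2*, a pore-forming claudin, by 1.03 (adjusted p = 0.00163), and all 3 were also called with the adjustment. *Muc2*, the main mucin of goblet cells, fell by 1.41 (adjusted p = 0.0172), *Lgals4*, a galectin, by 0.90 (adjusted p = 0.00477) and *Gpa33*, a surface glycoprotein, by 0.51 (adjusted p = 0.0332), of which *Lgals4* passed with it. With either *Bmal1* cKO mouse left out, 0 genes of the list were called lower in limma, and without WT mouse 2 it was 1. Without *Bmal1* cKO mouse 1 or 2, 2 and 3 were higher.

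Of 15 other transcription factors of the intestinal epithelium, 5 were lower and 4 higher, against 1 and 3 with the GC adjustment. Without WT mouse 2 or either *Bmal1* cKO mouse 3 were lower, and without either *Bmal1* cKO mouse 2 were higher. *Hnf4a*, a partner of CDX2 on enterocyte genes, had 5563 and 7582 normalized counts in the WT libraries and 5278 and 5514 in the *Bmal1* cKO libraries and was not called (log2 fold change -0.27; limma, adjusted p = 0.211), nor with the adjustment (0.20, adjusted p = 0.360). Its paralog *Hnf4g* rose, with group means of 197 ± 7.54 and 1019 ± 9.99 (SD, n = 2 each), 5.17-fold, also with the adjustment (limma, adjusted p = 0.00307). Of 14 genes of the small intestine or foregut, 4 were listed and 1 was tested, the retinol carrier *Rbp2*, which fell from 37.2 and 154 to 4.11 and 9.46 normalized counts (adjusted p = 0.0175, and 0.0359 with the adjustment), a call kept without WT mouse 1 and lost without any one of the other 3 mice. *Pdx1*, the foregut homeobox gene beside *Cdx2*, stood between 8.11 and 9.32 in the 4 libraries.

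Genes used as marks of position within the colon moved in both directions in each list. Of 5 tested genes described as higher in the proximal colon, 2 were lower and 1 higher. *Aqp4*, a water channel, rose from 5400 and 4250 normalized counts to 30220 and 45969 (log2 fold change 2.96; limma, adjusted p = 6.56e-04). *Ang4*, an antimicrobial ribonuclease, fell from 1315 and 1780 to 185 and 241 (-2.85, adjusted p = 5.42e-04), and *Car4*, a carbonic anhydrase, from 5432 and 10492 to 1585 and 2328 (-1.97, adjusted p = 0.00595). Of 6 tested genes described as higher in the distal colon, 3 were lower and 1 higher. *Scnn1b* and *Scnn1g*, subunits of the epithelial sodium channel, fell from 143 and 307 to 28.8 and 36.5 and from 168 and 275 to 18.5 and 5.41 normalized counts (adjusted p = 0.00429 and 0.00311). *Ly6g*, which is also a marker of neutrophils, fell by 1.27 on the log2 scale (adjusted p = 0.00176). The leukocyte genes *S100a8* and *Itgam* fell in the same libraries, with log2 fold changes of -3.75 and -2.84 (adjusted p = 0.0133 and 7.85e-04), and the part of leukocytes in the value of *Ly6g* was not tested. *B3galt5*, a galactosyltransferase, rose by 1.26 (adjusted p = 0.00223). All 7 of these marks of position were called in the same direction with the GC adjustment. The numbers of proximal genes called lower and of distal genes called lower and higher changed with single mice left out. With the block for the mouse number, 2 proximal genes were called higher. The median log2 fold change was -0.91 over the proximal and -0.74 over the distal genes.

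**Figure D5:**
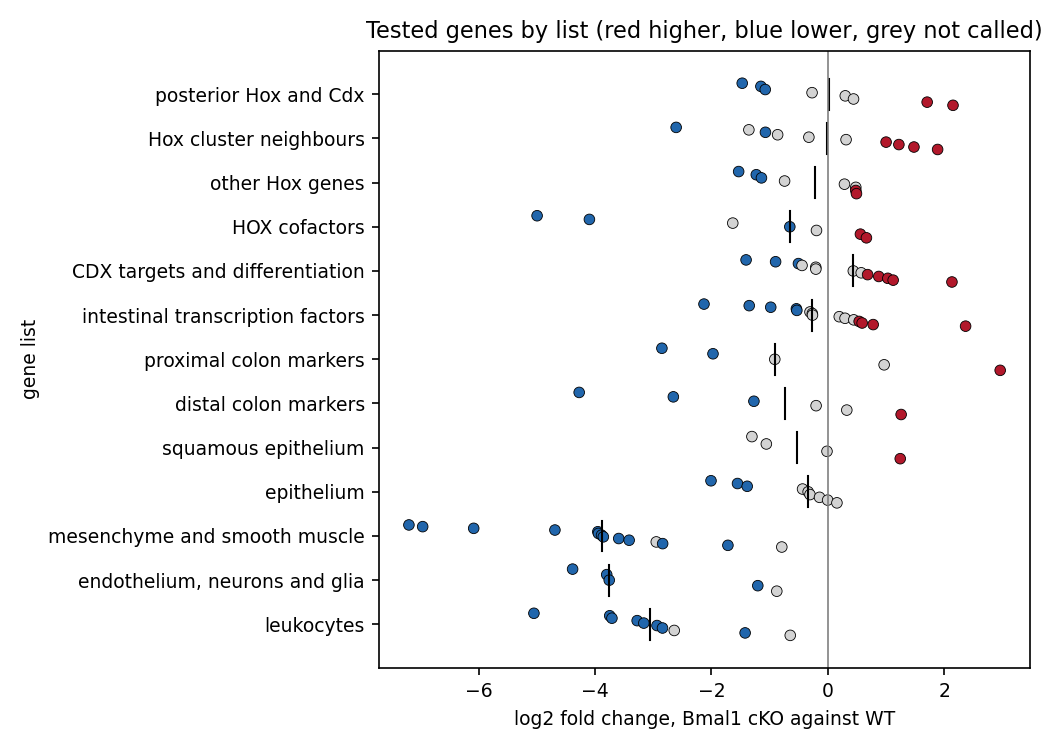
Log2 fold change of *Bmal1* cKO against WT for the tested genes of 13 lists (1 point a gene, black bars for list medians), with red for called higher, blue for called lower and grey for not called. The posterior *Hox* and *Cdx* genes lie on both sides of 0, as do the proximal and distal colon markers, whereas the tested mesenchymal, endothelial, neuronal, glial and leukocyte markers are all below 0. Below 0 are also 8 of the 9 epithelial and 3 of the 4 tested squamous markers.

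Squamous epithelium, as in the anal canal next to the rectum, was looked for by its keratins. The summed normalized counts of its 5 listed keratins were 85.3 and 83.9 in the WT libraries and 104 and 98.7 in the *Bmal1* cKO libraries. *Krt14*, a defining one, had 13.5 and 11.9 against 16.5 and 9.46, and *Krt5* and *Trp63* were searched for by symbol but were not among the listed genes. Of 4 tested, *Krt10* was called higher, from 20.3 and 36.4 to 62.7 and 68.9 (limma, adjusted p = 0.0475), and the other 3 were not called. *Krt13* had 27.0 and 17.8 against 12.3 and 8.11 and *Krt15* 18.6 and 13.6 against 8.23 and 4.06 normalized counts, both lower without overlap of the groups but not called (adjusted p = 0.171 and 0.165), so that the higher sum came mainly from *Krt10*. *Krt10* was also called with the GC adjustment (adjusted p = 0.0444). The call was lost without WT mouse 1, without either *Bmal1* cKO mouse, without a filter on low values, with library total scaling, with the block for the mouse number and in edgeR and DESeq2 on the recovered reads.

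Signals and chromatin proteins known to act on *Cdx* and *Hox* genes were read from the same fit. Of 10 tested genes of Wnt, FGF and retinoid signaling, 4 were lower and the other 6 not called, 2 were lower with the GC adjustment, and 2 were lower without WT mouse 1 or either *Bmal1* cKO mouse. *Fgfr1*, a fibroblast growth factor receptor, fell from 178 and 41.5 to 2.06 and 12.2 normalized counts (limma, adjusted p = 0.0238), the retinoic acid receptor gene *Rara* from 299 and 235 to 56.6 and 70.3 (adjusted p = 0.00154) and the Wnt effector *Tcf7* from 197 and 205 to 68.9 and 39.2 (adjusted p = 0.00514). *Tcf7* was also called with the GC adjustment (adjusted p = 0.0251), while *Fgfr1* and *Rara*, at log2 fold changes of -3.13 and -0.82, were not (adjusted p = 0.0665 and 0.0592). Of 17 Polycomb and trithorax genes, which hold *Hox* clusters silent or active, 6 were lower and 5 higher, against 4 and 3 with the GC adjustment, with 3 lower without *Bmal1* cKO mouse 1 and 3 higher without *Bmal1* cKO mouse 2. *Cbx7*, *Kdm6b* and *Ring1* fell, with log2 fold changes of -2.04, -1.92 and -1.72 (adjusted p = 0.00120, 5.33e-04 and 0.00161) and *Suz12*, *Kdm6a* and *Bmi1* rose by 1.07, 1.02 and 0.79 (adjusted p = 9.32e-04, 9.30e-04 and 0.00208). *Kdm6b* and *Cbx7* still passed with the GC adjustment and the other 4 did not. *Kmt2d* turned with it, from a called log2 fold change of -0.70 (adjusted p = 0.00904) to a called 0.55 (adjusted p = 0.0306).

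The gene with the profile nearest to each tested member was sought over the 4 libraries among 9978 or 9979 genes with a mean of at least 100, which describes so few points that many genes come close. The nearest were *Mnt* for *Cdx1* (root mean square difference of centred log2 values 0.02), *Itga7* for *Cdx2* (0.07), *Atg9a* for *Hoxb13* (0.02), *Slc39a5* for *Hoxa13* (0.03), *Nt5c3b* for *Hoxa11* (0.03), *Kbtbd8* for *Hoxd10* (0.05) and *9430038I01Rik* for *Hoxd11* (0.05). For *Hoxd13* the nearest was *Gbp7*, an interferon-inducible GTPase, at a larger distance of 0.19.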

How the data were processed

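The authors aligned reads to GRCm38 with STAR and used DESeq2. The counter, the annotation release and the use of strand are not given in the sources used here, and the labels and the methods name different library kits. The authors deposited a signal for each library, with its mean, that is read counts scaled by a size factor. The log2 fold changes with standard errors, the score (Wald statistic) and the p-values that the authors deposited were not used.

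Low values stepped by the worth of a single read in every library (100% whole within 0.02 reads), which gave back the reads. Positions, exon lengths and GC content came from the GENCODE annotation on GRCm38, for 16003 of the 16015 genes. Genes whose mean reached 10 were fitted with limma 3.58.1 (R 4.3.3) with a mean-variance trend on log2(value + 1), a scale that understates the change of low genes, with Benjamini-Hochberg adjustment. The GC adjustment was a loess (span 0.3) on GC content and log2 exon length in each library. Alternatives were pseudocounts of 0.5 and 5, no filter, a mean of at least 50, library total and TMM scaling, edgeR 4.0.16 and DESeq2 1.42.0 on the reads, a block for the mouse number, and leaving out each mouse. The GC adjustment joined with the block was added after the data were seen. The limma fit and the GC adjustment were also run on simulated counts. Those had far fewer changed genes than were called here and no shift in cell types, so they do not show the behaviour on these data. Floors of 3 reads cover counting error only.

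The members, lists and rules were chosen with earlier results of these data known. Named were the members, *Arntl*, *Hnf4a* and *Hoxa11os*, from each list up to 3 genes that fell and 3 that rose most among those called with a mean of at least 50, and the nearest profile of each tested member. Some genes that the rule names are not reported here. *Hox* genes with few reads, *Evx2*, *Meis2*, *Meis3*, *Pdx1*, *Krt10*, *Krt13*, *Krt14*, *Krt15*, *Kmt2d*, *S100a8*, *Itgam* and *Des* beside their lists were named after their values were seen where the rule did not name them. The labels number the mice but do not say what equal numbers share, and p-values measure only the spread between these samples.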

Additional observations from a re-analysis of the deposited data

How the results depend on the processing

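Of the members, 3 were called lower and 2 higher. With the GC adjustment 0 were lower, and with the adjustment and the replicate block together 1 (*Cdx2*). With a mean of at least 50, which leaves out *Hoxa11* and *Hoxd10*, 1 was higher. With one mouse left out at a time, where a lone mouse is taken to vary like the others, 2 were lower and 0 to 1 higher. Over all genes, 3871 were lower and 4059 higher, against 2345 and 2386 with the GC adjustment, 1826 and 1957 with adjustment and block, 2205 to 2852 and 2654 to 3154 with a mouse left out, and 4885 and 3091 with library total scaling. Among the genes that the rule names, direction turned with the GC adjustment, with and without the block, in *Cdx1* (0.67), *Hoxb13* (0.30), *Atg9a* (0.65), *Bmi1* (-0.29), *Cldn3* (0.34), *Hnf4a* (0.20), *Mnt* (0.22), *Suz12* (-0.00904) and *9430038I01Rik* (-0.18). Direction also turned with the GC adjustment in *Kmt2d* (0.55) and *Krt14* (0.90), which the rule does not name. Without *Bmal1* cKO mouse 1 it turned in *Hoxd11* (-0.22, and 0.82 without mouse 2) and *9430038I01Rik* (-0.17, and 0.77 without mouse 2). The cause was not tested. The deviations of the mice numbered 1 from their group means had a correlation of -0.09 over the tested genes. With 2 mice a group, this cannot show whether equal numbers pair the samples. The replicate block alone gave 3789 lower and 3899 higher genes, with *Hoxa11* not called (limma, adjusted p = 0.0644) and *Hoxa13* called higher (adjusted p = 0.0265). At this depth *Hoxd12*, with at most 10 reads, was not detectable as changed.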
